A study of Mus musculus with 8 samples.

Results

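Cbr2, Gpx2 and Xdh encode oxidoreductases of separate enzyme families, and their transcripts were examined in mouse keratinocytes carrying the v-rasHa oncogene, with and without Nfkbiz. The genes were taken as the rows of the value table whose platform annotation gives 1 symbol equal to Cbr2, Gpx2 or Xdh. This gave 3 of 11373 probe sets, 1 per gene, and the comparison over the whole array covered 9294 genes. The genes were chosen because their signals differed between the genotypes, so that difference is described here and not tested. Wild-type RAS cells were wild-type keratinocytes of strain C57BL/6, and knockout RAS cells were keratinocytes of the same strain lacking Nfkbiz, the gene of the nuclear NF-kB regulator IkBz. Cells of both genotypes had been transduced with v-rasHa, an activated viral Ras, for 3 days and were kept in regular medium without starvation. Each genotype had 4 arrays, labelled as biological replicates. No culture without v-rasHa was analysed, Nfkbiz itself was not among the genes analysed here, and the labels used here do not say how the Nfkbiz allele was inactivated or whether cells of several animals were pooled.

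Cbr2 is a carbonyl reductase of the short-chain dehydrogenase family that uses NADPH to reduce aldehydes and ketones, and it is best known from the mouse lung. Gpx2 is a selenium-containing glutathione peroxidase of epithelia, which reduces hydrogen peroxide and organic hydroperoxides at the expense of glutathione. It is known as a target of NRF2, the transcription factor of the oxidant response. Xdh is xanthine dehydrogenase, a molybdenum enzyme that oxidises hypoxanthine to xanthine and xanthine to urate at the end of purine breakdown, and in its oxidase form it passes electrons to oxygen.

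The signals of all 3 genes were lower in knockout RAS than in wild-type RAS arrays, and Cbr2 differed the most. Since the 3 genes were lower together in cells without a regulator of NF-kB target genes, their promoters were looked up in the RefSeq promoter table of build GRCm38.p6, where 2 of the 3, Cbr2 and Gpx2, matched, and the 250 bases upstream of each start were read. Both lie on the minus strand and are written 5′ to 3′ as the gene reads, at chr11:120732022-120732271 for Cbr2 and chr12:76795555-76795804 for Gpx2.
Cbr2: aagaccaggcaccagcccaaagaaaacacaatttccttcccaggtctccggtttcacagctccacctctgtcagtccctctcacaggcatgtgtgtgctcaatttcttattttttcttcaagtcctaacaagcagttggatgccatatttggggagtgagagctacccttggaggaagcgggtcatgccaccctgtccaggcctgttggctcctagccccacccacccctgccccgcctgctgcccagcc
Gpx2: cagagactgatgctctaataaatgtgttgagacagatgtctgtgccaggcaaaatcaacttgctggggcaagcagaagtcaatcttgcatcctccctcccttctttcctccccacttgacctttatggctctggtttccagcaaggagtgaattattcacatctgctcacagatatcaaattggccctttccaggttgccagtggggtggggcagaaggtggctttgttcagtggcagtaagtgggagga
Both strands were searched for 4 motifs: the NF-kB consensus, the antioxidant response core TGACNNNGC, the AP-1 site TGANTCA and the C/EBP-type site TTNNGNAA, where N is any base. Neither stretch held a match to any of them, so no base is in capitals. Among 32851 promoter windows of 250 bases in that table, 7.25% held the NF-kB consensus, 10.2% the antioxidant response core, 6.75% the AP-1 site and 36.8% the C/EBP-type site. The absence of a match says only that these letters are not in these windows. The GC content was 55.6% for Cbr2 and 49.2% for Gpx2, against a median of 52.4% over all windows.

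The log2 medians of the arrays ran from 4.49 to 4.57, and the values of Cbr2, Gpx2 and Xdh were above the median of the array on every array. Across probe sets, which are no independent replicates, arrays of a genotype correlated at 0.997 to 0.998 and arrays of different genotypes at 0.994 to 0.996. The labelled cell type was checked against its markers: 8 of 9 measured keratinocyte markers, Krt5, Cdh1 and Perp among them, lay above the array medians on all arrays, while Krt15 did not. The same held for 6 of 7 fibroblast and 4 of 4 melanocyte markers, so this measure does not separate keratinocytes from those cells. It held for 6 of 16 macrophage and dendritic cell, 2 of 9 endothelial and 1 of 5 adipocyte markers. In limma with Benjamini-Hochberg adjustment over the 9294 genes, 8.90% of genes passed an adjusted p of 0.05, 4.43% lower and 4.47% higher in the knockout. After median centring of the arrays, 482 genes were higher and 314 lower, in place of 415 and 412. A gene is said below to have risen or fallen in the knockout where it passed that threshold.

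Markers of other cells were read in the same arrays because bulk RNA cannot separate fewer cells of a type from less RNA per cell. Of 7 measured fibroblast markers, 6 fell and 1 rose, where 4.43% of all genes fell and 4.47% rose. The log2 of the summed signals of these 7 markers was 10.03 to 10.15 in wild-type RAS and 9.52 to 9.73 in knockout RAS arrays. Twist2 fell by 1.02 ± 0.06, Dcn by 0.97 ± 0.08 and Dpt by 0.85 ± 0.07 (log2 difference ± SE), whereas Postn, which encodes periostin, rose by 1.47 ± 0.09. These markers moved in the same arrays as Cbr2, Gpx2 and Xdh, and their part in those differences was not tested. Of 4 melanocyte markers Pmel fell by 0.28 ± 0.06 and the summed signal was 11.49 to 11.55 against 11.12 to 11.42. Of 16 macrophage and dendritic cell markers 1 fell, Tyrobp, by 0.25 ± 0.07, with summed signals of 8.67 to 8.79 against 8.63 to 8.67. The Tyrobp call was lost in 10 of 14 alternatives, with an adjusted p of up to 0.0925. At an unadjusted p under 0.05, 3 melanocyte and 4 macrophage or dendritic cell markers were lower and none higher. The share of all genes at that unadjusted level is not given here, so nothing is read from this or any later unadjusted count. Of the 16, Cd68, Cd14, Lyz2, H2-Eb1, Folr2 and Cd74 lay above the median of every array, and Mrc1, Cd163 and Itgam lay below the lower quartile of every array. None of 9 endothelial markers passed the limma threshold, 1 had an unadjusted p under 0.05, and their summed signal was 7.59 to 7.63 in wild-type RAS and 7.44 to 7.62 in knockout RAS arrays. None of 5 adipocyte markers passed it either, again with 1 at an unadjusted p under 0.05, and the summed signal was 6.11 to 6.36 against 6.13 to 6.38, and Retn was above the median of every array, Adipoq and Cidec below the lower quartile of every array, and Lep and Pparg neither. Of the 9 keratinocyte markers Col17a1 fell by 0.31 ± 0.07, and the summed signal was 14.95 to 14.99 against 14.88 to 14.96.

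Cbr2 was the gene with the largest difference of the 3. Its log2 signal was 9.03, 8.83, 8.83 and 9.00 in wild-type RAS replicates 1 to 4 and 6.71, 6.77, 6.74 and 6.60 in knockout RAS replicates 1 to 4. All wild-type values were above all knockout values, and the gap between the nearest values of the groups was 2.06, while the values of a genotype spanned 0.21 and 0.17. The mean was 8.92 ± 0.11 in wild-type RAS and 6.71 ± 0.07 in knockout RAS arrays (SD, n = 4 per group). The log2 difference was -2.22 ± 0.07 (SE), a 4.65-fold lower signal, or 21.5% of the wild-type signal. Only 5 of the 9294 genes had a lower difference, which restates how the gene was chosen.

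Gpx2 differed less. Its log2 signal was 7.08, 7.15, 7.04 and 7.13 in wild-type RAS replicates 1 to 4 and 6.40, 6.65, 6.68 and 6.45 in knockout RAS replicates 1 to 4. The groups did not overlap, with a gap of 0.36 between the nearest values. The wild-type values spanned 0.11, and knockout values spanned 0.28, with replicates 1 and 4 lower than replicates 2 and 3. The mean was 7.10 ± 0.05 in wild-type RAS and 6.54 ± 0.14 in knockout RAS arrays (SD, n = 4 per group), a log2 difference of -0.55 ± 0.07 (SE), or a signal 1.47-fold lower. The RefSeq gene table also lists a transcribed pseudogene, Gpx2-ps1, and whether the probe set also binds its transcript was not tested.

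Xdh had a log2 signal of 7.41, 7.36, 7.42 and 7.54 in wild-type RAS replicates 1 to 4. The knockout RAS replicates 1 to 4 had 6.89, 7.03, 7.13 and 6.84. The groups did not overlap here either, and the gap between them, 0.23, was smaller than the 0.30 spanned by the knockout values. The mean was 7.43 ± 0.08 in wild-type RAS and 6.97 ± 0.13 in knockout RAS arrays (SD, n = 4 per group), and the log2 difference was -0.46 ± 0.07 (SE), a 1.38-fold lower signal. Over all genes, 7.97% had knockout values that were all below the wild-type values, and since the 3 genes were chosen from this contrast nothing is read from their separation.

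**Figure D1:**
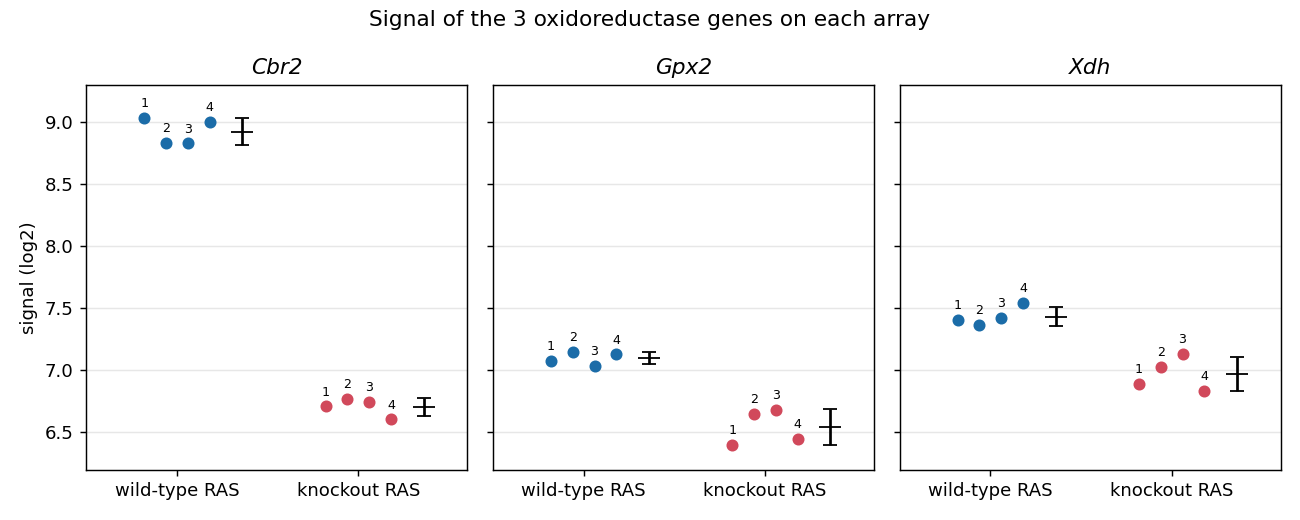
Log2 signal (y axis) of Cbr2, Gpx2 and Xdh on the 4 wild-type RAS arrays (blue) and 4 knockout RAS arrays (red), with replicate numbers beside the points and the mean ± SD of each genotype in black. In every panel the groups are apart, by 2.06 for Cbr2, 0.36 for Gpx2 and 0.23 for Xdh between nearest values.

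Within a genotype, Gpx2 and Xdh deviated from their genotype mean with the same sign on 7 of 8 arrays. Knockout RAS replicates 2 and 3 were above the genotype mean for both genes, and replicates 1 and 4 were below it. Cbr2 shared the sign with Gpx2 on 5 and with Xdh on 6 of the 8 arrays. The arrays with the higher Gpx2 and Xdh signals had medians of 4.49 and 4.52, against 4.53 and 4.54 for knockout RAS replicates 1 and 4, and the part of array scale in these deviations was not tested. These counts describe values that share an array and hence a labelling reaction.

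The genes with the most similar profiles were sought among the other 9293 genes. The measure was the root mean square difference, over the 8 arrays, between log2 profiles each set to a mean of 0, so a smaller value means greater likeness. It includes the genotype difference that chose Cbr2, Gpx2 and Xdh, and it is given without a test. Nearest to Cbr2 were Csf3, which encodes the neutrophil growth factor G-CSF, at 0.11, the chemokine gene Ccl20 at 0.19, the cornified envelope gene Sprr2d at 0.20 and Tmem45a, which encodes a transmembrane protein, at 0.23. The Csf3 signal had a mean of 7.99 ± 0.09 in wild-type RAS and 5.71 ± 0.16 in knockout RAS arrays (SD, n = 4 per group). All 4 remained the nearest to Cbr2 in all 14 alternative runs, including those without 1 array.

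Nearest to Gpx2 were Acot1, which encodes an acyl-CoA thioesterase, at 0.05, the peptide and histidine transporter gene Slc15a3 at 0.06, the collagen VI gene Col6a1 at 0.07 and Vwa1, a matrix protein gene, at 0.07. Without 1 array, 3 or 4 of these 4 remained. Nearest to Xdh were Smox, the gene of spermine oxidase, at 0.05, Col6a1 at 0.06, Acot1 at 0.07 and Myl7, a myosin light chain gene, at 0.07. The list for Xdh was less stable: 1 of the 4 remained when replicate 4 of either genotype was left out, and 2 remained when replicate 1 of either genotype was left out. Acot1 and Col6a1 were among the nearest for both Gpx2 and Xdh, whose own profiles differed by 0.08, whereas Cbr2 was 0.84 from Gpx2 and 0.88 from Xdh. The log2 differences of Acot1 and Col6a1 were -0.51 ± 0.06 and -0.50 ± 0.06 (SE).

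**Figure D2:**
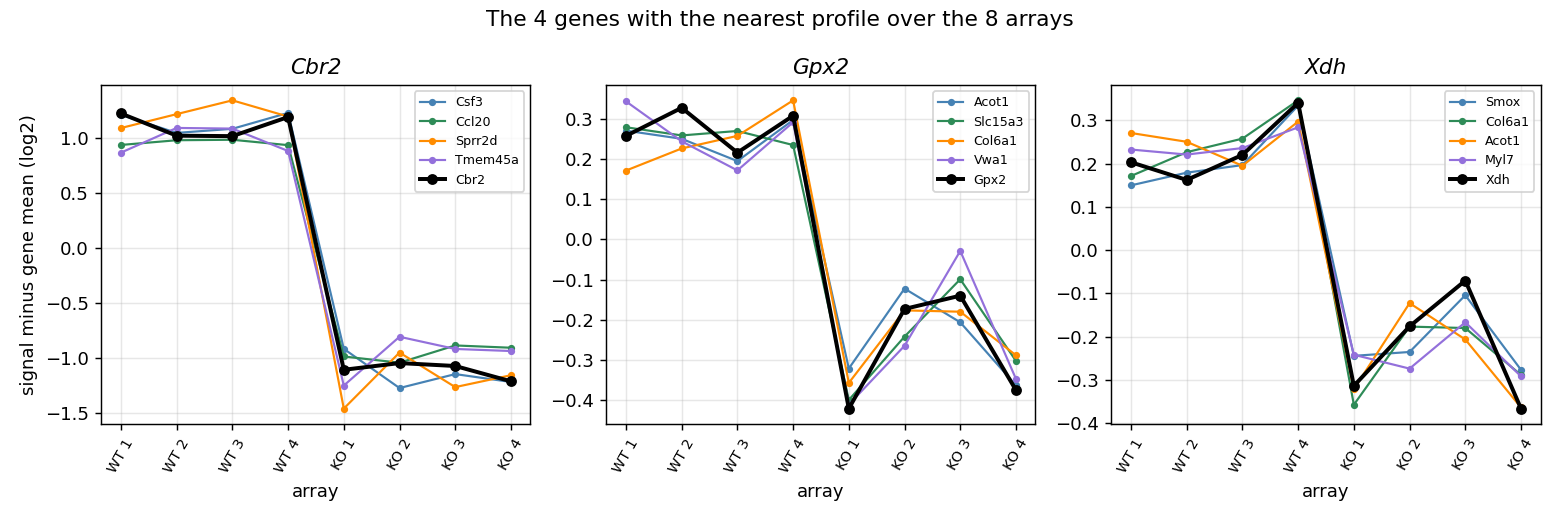
Log2 signal minus the mean of the gene over the 8 arrays (y axis) on each array (x axis) for Cbr2, Gpx2 and Xdh (black) and the 4 genes nearest to each (colours), with a y scale of its own in each panel. The Gpx2 and Xdh profiles are higher at knockout RAS replicates 2 and 3 than at replicates 1 and 4, while the Cbr2 profile is dominated by the difference of -2.22 between genotypes.

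Related enzymes were then read from 9 lists of redox and purine genes, without Cbr2, Gpx2 and Xdh. The lists held 136 measured genes, 6 of them in more than 1 list. Of the 136 genes, 13 fell and 7 rose, or 14.7% against 8.90% of all genes, with a median log2 difference of -0.04 against -0.01. No member of these lists had as low a difference as Cbr2, and 2, Noxo1 and Aox4, were lower than Gpx2 and Xdh. Since Cbr2, Gpx2 and Xdh were chosen from this contrast, nothing is read from that order. None of the 20 that passed changed by as much as 2-fold.

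Relatives of Cbr2 passed the threshold at a share near that of all genes. Of 34 carbonyl reductases and other short-chain dehydrogenases, 2 fell, 1 rose and 31 did not pass (8.82% called against 8.90% of all genes, median log2 difference 0.01). Dcxr, which encodes dicarbonyl and L-xylulose reductase and is a close relative of Cbr2, fell from 9.04 ± 0.03 to 8.72 ± 0.07 (SD, n = 4 each, with a limma adjusted p of 0.00292). Sdr42e1, a less studied family member, fell by 0.28 ± 0.06 (SE), and Dhrs3, a reductase of retinaldehyde, rose by 0.22 ± 0.06 (limma adjusted p = 0.0339). The call of Dhrs3 was lost, with adjusted p of up to 0.0993, in each run that left out an array, except the run without wild-type RAS replicate 3. The cytosolic carbonyl reductase genes Cbr1 and Cbr3 had log2 differences of 0.07 ± 0.05 and 0.02 ± 0.05, and Cbr4, whose product acts in mitochondrial fatty acid synthesis, had 0.18 ± 0.06 (limma adjusted p = 0.500, 0.916 and 0.110). Of these 3, Cbr4 passed with the trended robust prior (adjusted p = 0.0184). In that run 6 members of the list passed, and 5 passed with the dimmest 25% of genes left out. None of 8 aldo-keto reductases, another family of carbonyl-reducing enzymes, passed the limma threshold, 0 had an unadjusted p under 0.05, and their differences lay between -0.18 and 0.12. Of 16 aldehyde and alcohol dehydrogenases, Aldh1l2, a mitochondrial folate enzyme gene, fell by 0.36 ± 0.06 and 15 did not pass (6.25% called). In this group 2 genes passed in place of 1 when replicate 1 of the wild-type, or replicate 3 or 4 of the knockout, was left out.

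Among the measured glutathione peroxidase genes other than Gpx2, which was not tested, none fell in limma and Gpx8 rose. Gpx1, the abundant cytosolic form, had 12.05 ± 0.05 in wild-type RAS and 11.93 ± 0.04 in knockout RAS arrays (SD, n = 4 per group), with non-overlapping values but a limma adjusted p of 0.214. It passed with the trended robust prior (adjusted p = 0.00794). The plasma form Gpx3 had a log2 difference of -0.07 ± 0.08 (SE), and Gpx7, an endoplasmic reticulum form, had -0.10 ± 0.07. Gpx5 and Gpx6, known from epididymis and olfactory tissue, had -0.12 ± 0.09 and -0.02 ± 0.07. Gpx8, the second endoplasmic reticulum form, rose from 8.92 ± 0.06 to 9.17 ± 0.06 (SD, n = 4 each, with a limma adjusted p of 0.0149). With Prdx3 and Glrx5, 8 of 31 genes listed for peroxide or superoxide removal were measured. No superoxide dismutase or catalase gene was among the measured ones. Of the 8, 1 rose and 7 did not pass (12.5% called against 8.90% of all genes). With the trended robust prior, 2 passed. A miss of the threshold does not show that these genes were equal between genotypes.

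The genes Gclc, Gclm and Gss, whose enzymes make glutathione, were not among the genes analysed here. The list of glutathione synthesis and transfer held a further 19 measured genes, for the most part transferase genes. Of these, 2 rose, 1 fell and 16 did not pass (15.8% called against 8.90% of all genes). The glutathione transferase genes Gstm2 and Gstk1 rose by 0.38 ± 0.05 and 0.34 ± 0.06 (SE), and Chac1, whose product degrades glutathione, fell by 0.34 ± 0.06. Of 19 genes of the NRF2 pathway, 1 fell and 18 did not pass (5.26% called, median log2 difference -0.01). Blvrb, the biliverdin reductase B gene, fell by 0.27 ± 0.07 (limma adjusted p = 0.0304). That call was lost with arrays centred on their median and when wild-type RAS replicate 1, 3 or 4, or replicate 2 or 4 of the knockout, was left out, where 0 of the 19 passed and the adjusted p of Blvrb reached 0.0792. Nfe2l2, the NRF2 gene, had a difference of -0.07 ± 0.05, and its textbook targets Nqo1 and Hmox1 had 0.12 ± 0.09 and 0.01 ± 0.08 (limma adjusted p = 0.487, 0.526 and 0.976). Keap1, Gsr, Gclc, Gclm, Srxn1 and Txnrd1 were not analysed here.

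For Xdh, the enzymes nearest in structure are the aldehyde oxidases, which use the same molybdenum cofactor. Aox4 fell from 5.10 ± 0.21 to 4.41 ± 0.24 (SD, n = 4 per group), a log2 difference of -0.68 ± 0.13 (SE; limma adjusted p = 0.00545), and its knockout mean lay below the array medians. Aox1 and Aox3 had 0.23 ± 0.11 and -0.03 ± 0.08 (limma adjusted p = 0.264 and 0.900), and Aox1 passed only without wild-type RAS replicate 3 (adjusted p = 0.0434). Mocos, which encodes the sulfurase that activates Xdh and the aldehyde oxidases, had -0.03 ± 0.05 (limma adjusted p = 0.789). Mtarc2, a mitochondrial molybdenum reductase gene, fell by 0.24 ± 0.06, and the sulfite oxidase gene Suox rose by 0.27 ± 0.07. Of the 6 measured molybdenum genes, 2 fell, 1 rose and 3 did not pass (50% called against 8.90% of all genes). Only 1 passed when replicate 1 or 4 of the wild-type, or replicate 1, 2 or 4 of the knockout, was left out. The Mtarc2 call was lost in those runs, with adjusted p of 0.0528 to 0.0669, and after median centring (adjusted p = 0.0585). Suox lost its call in all 8 runs that left out an array and after repeated quantile normalization (adjusted p of up to 0.102).

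Purine genes around Xdh moved both ways. Of 15 measured genes of purine breakdown and salvage, 2 rose, 1 fell and 12 did not pass. The share called was 20% against 8.90% of all genes, with a median log2 difference of 0.00. Entpd3, an ectonucleotidase gene, rose from 6.38 ± 0.08 to 7.31 ± 0.08 (SD, n = 4 each, with a limma adjusted p of 3.09e-06), and Adss, the adenylosuccinate synthase gene, rose by 0.24 ± 0.05 (SE). The AMP deaminase gene Ampd3 fell by 0.36 ± 0.05. Pnp, Ada and Hprt, whose enzymes lead to hypoxanthine or compete with Xdh for it, did not pass. Pnp, purine nucleoside phosphorylase, had 0.09 ± 0.04, Ada, adenosine deaminase, had -0.17 ± 0.08 and the salvage enzyme gene Hprt had 0.01 ± 0.05 (limma adjusted p = 0.321, 0.241 and 0.966). Gda, also a purine enzyme gene, was not analysed here. Uox, the urate oxidase gene, lay below the array medians with a difference of 0.00 ± 0.08.

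Genes of enzymes that produce oxidants were all lower where they passed the threshold. Of 17 measured oxidase genes, 5 fell, none rose and 12 did not pass in limma (29.4% called, median log2 difference -0.08), where 4.43% of all genes fell. At an unadjusted p under 0.05 in limma, 6 were lower and none higher, and as above nothing is read from this count. Noxo1, which encodes the organiser subunit of NADPH oxidase 1, fell from 6.48 ± 0.09 to 5.77 ± 0.08 (SD, n = 4 each, with a limma adjusted p of 3.00e-05). Smox, the spermine oxidase gene that was also nearest to Xdh in profile, fell from 9.91 ± 0.08 to 9.48 ± 0.08. Cyba, which encodes the p22phox subunit of NADPH oxidases, fell by 0.36 ± 0.07 (SE), and the dual oxidase gene Duox1 and its maturation factor gene Duoxa1, the latter chosen once its values were known, fell by 0.25 ± 0.07 and 0.21 ± 0.06. The Duox1 and Duoxa1 calls were near the threshold (limma adjusted p = 0.0486 and 0.0488). Only 3 of the 5 passed after median centring, and 3 of the 5 passed when any 1 array other than replicate 1 of the wild-type was left out, with adjusted p of up to 0.131 for Duox1 and 0.134 for Duoxa1. The fibroblast markers described above were lower in the same arrays, and their part in this list was not tested.

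**Figure D3:**
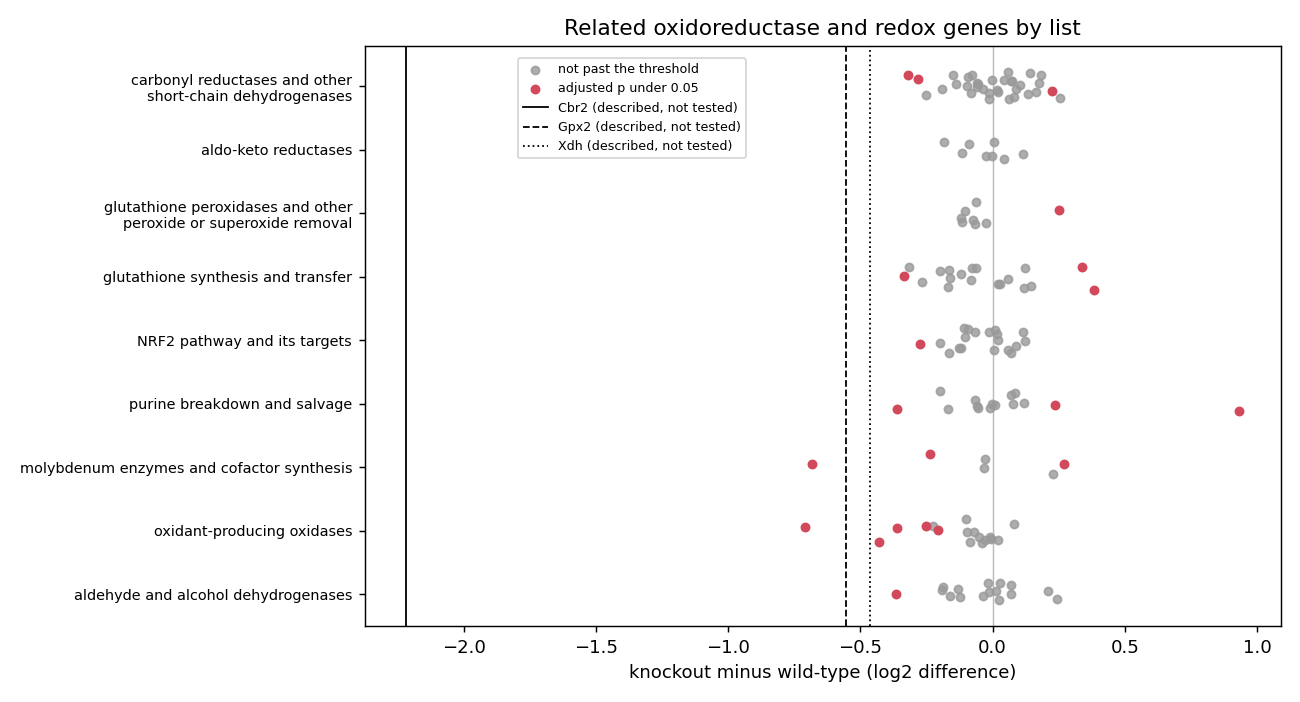
Log2 difference, knockout minus wild-type (x axis), of each measured gene of the 9 lists (rows), in red where the adjusted p was under 0.05 and grey elsewhere. Vertical lines mark Cbr2 at -2.22, Gpx2 at -0.55 and Xdh at -0.46. Most related genes lie to the right of all 3 lines, from which nothing is read, since this contrast chose the 3 genes.

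The neighbouring genes on the chromosomes were read in the order of the RefSeq gene table, taking the 4 nearest genes with a value on each side. Of 24 such genes, 3 fell, 1 rose and 20 did not pass (16.7% called, against 8.90% of all genes). The 3 that fell were all around Cbr2 on chromosome 11. Dcxr is the gene next to Cbr2, with no other protein-coding gene between them, and its fall of 0.32 ± 0.05 (SE) is given above. Rac3, a small GTPase gene on the far side of Dcxr, fell from 8.35 to 7.70, a log2 difference of -0.65 ± 0.05 (limma adjusted p = 1.02e-05). Slc16a3, a lactate transporter gene further along on the opposite side, fell by 0.60 ± 0.12 (limma adjusted p = 0.0101). The other 5 neighbours of Cbr2, among them the fatty acid synthase gene Fasn and the signalosome gene Gps1, had differences between -0.05 and 0.03. Dcxr and Cbr2 are related in sequence, and binding of one transcript by the probe set of the other was not tested.

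Around Gpx2 on chromosome 12, Hspa2, a heat-shock protein gene, rose by 0.30 ± 0.06 (limma adjusted p = 0.00557) and 7 genes did not pass. Rab15, the next gene on one side of Gpx2 with no protein-coding gene between, had a difference of 0.01 ± 0.06. None of the 8 neighbours of Xdh on chromosome 17 passed the limma threshold and 2 had an unadjusted p under 0.05, with differences from -0.10 in Alk to 0.22 in Galnt14. The calls of Dcxr, Rac3, Slc16a3 and Hspa2 were kept in all 14 alternatives.

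**Figure D4:**
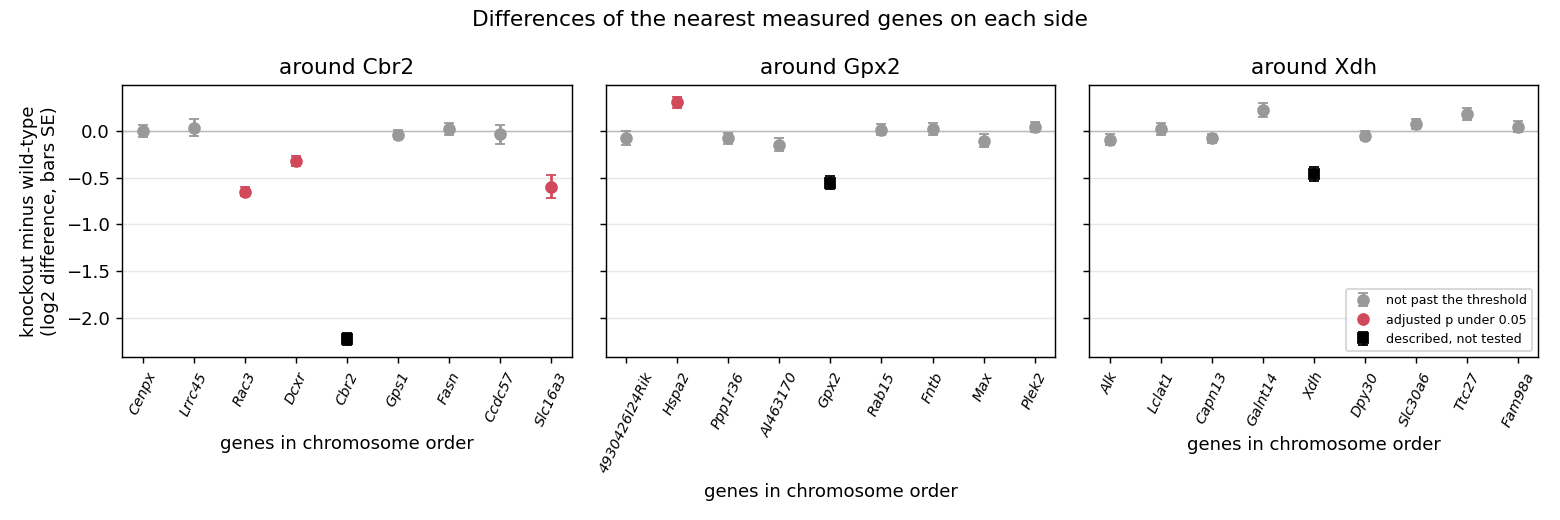
Log2 difference, knockout minus wild-type, with SE bars (y axis) for the 4 nearest measured genes on each side of Cbr2, Gpx2 and Xdh in chromosome order (x axis, not to distance). Around Cbr2, Dcxr lies at -0.32, Rac3 at -0.65 and Slc16a3 at -0.60, and its other neighbours lie between -0.05 and 0.03. The genes shown around Gpx2 and Xdh lie between -0.15 and 0.30.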

How the data were processed

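Biotin-labelled total RNA of 8 keratinocyte cultures was measured on one-colour oligonucleotide arrays, per the labels. The authors deposited log2 signals, 1 for each of 11373 probe sets on every array, as judged from the spread of the values (1.57 to 13.9). How they summarised and normalized them, and the genome build, is not given in the sources used here. Detection calls were not used, and precision is limited by the number of arrays. The platform annotation gave 1 symbol to 9374 probe sets, several to 479 and none to 1520. A gene is its brightest probe set with 1 symbol (9294 genes, 9201 matched by Entrez identifier to RefSeq).

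Differences are knockout minus wild-type from limma 3.58.1 (lmFit, eBayes; R 4.3.3) with no covariate, Benjamini-Hochberg over all genes, threshold 0.05. P-values set the genotype difference against the spread among the arrays of a genotype, which are labelled biological replicates. The variance of each gene was moderated over all genes. The functions were tested on simulated data. Cbr2, Gpx2 and Xdh carry no p, since the contrast chose them. The genes and lists were chosen with earlier results of these data known. Named genes are these 3, 20 relatives named in any case, up to 4 called members of each pathway list and 3 of each marker list, the 4 nearest profiles of each gene, and the neighbours. Duoxa1 and the fibroblast marker Dpt were added later. So were list members named only by their place in a list (Prdx3, Glrx5, Uox and cell type markers with no difference given). Of these additions, only Duoxa1 is among the 78 named genes counted below. Alternatives were repeated quantile normalization, median centring, a filter on dim genes, probe set means, a trended robust prior, the replicate block and leaving out each array.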

Additional observations from a re-analysis of the deposited data

Results flagged for a closer look

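Among 78 named genes, 156 groups of 4 arrays were examined for 1 array far from the other 3, measured as the gap to the nearest other value divided by the range of the group. Chance gives about 1 in 20 such groups, and 9 were found. None concerned Cbr2, Gpx2 or Xdh, whose largest ratio was 0.675. In wild-type arrays, replicate 2 was low for Pnp (ratio 0.893, 10.13 against 10.15 to 10.16), for Nqo1 (0.838, 5.41 against 5.70 to 5.76) and for Twist2 (0.912, 8.44 against 8.53). Wild-type replicate 4 was low for Suox (0.927, 5.88 against 6.08 to 6.09) and high for Rab15 (0.951, 8.59 against 8.42 to 8.43). In knockout arrays, replicate 2 was high for Dhrs3 (0.838, 8.08 against 7.99 to 8.00) and low for Capn13 (0.881, 4.58 against 4.62). Knockout replicate 4 was high for Ppp1r36 (0.912, 4.64 against 4.61 to 4.62) and low for Alk (0.923, 4.42 against 4.62 to 4.64).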

How the results depend on the processing

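The log2 differences kept their sign in all 14 alternatives and moved by less than 1 SD: without 1 array they lay between -2.25 and -2.18 for Cbr2, -0.60 and -0.51 for Gpx2, and -0.52 and -0.42 for Xdh, and in the other alternatives between -2.22 and -2.19, -0.58 and -0.53, and -0.49 and -0.44. Over all genes, 827 passed, 598 to 687 without 1 array and 659 to 1134 otherwise. Without 1 array, counts ranged from 0 to 1 for the NRF2 pathway, 1 to 3 for molybdenum genes, 3 to 4 for oxidases and 1 to 2 for aldehyde and alcohol dehydrogenases. With median centring, 0 NRF2 pathway genes, 3 oxidases and 2 aldehyde or alcohol dehydrogenases passed. The latter were also 2 after repeated quantile normalization and 2 without the dimmest 25% of genes, where 5 short-chain dehydrogenases passed. With the trended robust prior, 6 short-chain dehydrogenases and 2 peroxide-removal genes passed. The cause was not tested. Of 38 called named genes, 30 kept their call in all alternatives and 8 lost it in at least 1 (Dhrs3, Blvrb, Mtarc2, Suox, Duox1, Duoxa1, Tyrobp and Col17a1). Of 37 not called, 3 gained a call (Cbr4, Gpx1 and Aox1), and no sign changed together with a call.

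The labels do not say whether the replicate numbers pair the samples. Deviations of same-numbered arrays correlated at 0.09, 0.00, 0.03 and -0.05, and only wild-type replicate 1 correlated best with its own number. These correlations cannot decide whether the samples were paired, since each deviation is taken from a mean of few arrays. With the replicate block, Dhrs3, Mtarc2, Duoxa1 and Col17a1 lost their calls (adjusted p = 0.0909, 0.0733, 0.0686 and 0.0539), 659 genes passed in place of 827, and the differences were -2.22 for Cbr2, -0.55 for Gpx2 and -0.46 for Xdh. Signals near or below the array medians could not be told from background without detection calls.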
